A study of Mus musculus with 12 samples.

Results

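Across the genome, 389 m6A regions of the mouse hippocampus were called in every one of 4 libraries and lay at least 10000 bp from any other called region. A region was made by merging the peaks of the 4 deposited lists that shared 1 bp or more, with strand ignored. Of 70674 regions, 10203 were called in all 4 lists, and the 389 solitary ones made up 3.81% of these. The regions were chosen by measured values, the peak calls and peak positions of these libraries, so neither is a finding about them. The libraries were m6A immunoprecipitations (m6A-IP) of poly(A)+ RNA from the hippocampi of wild-type C57BL/6 males, 2 libraries from mice of 2 weeks and 2 from mice of 6 weeks. The series also labels 4 input libraries of these ages and 4 RNA-seq libraries of adult Fto knock-out and wild-type mice, which were not analysed here except where an input enters a deposited list as control. No agent or transgene is labelled for the groups used. The labels call the 2 libraries of an age biological replicates without naming the animals, so p-values measure the spread between these samples.

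N6-methyladenosine (m6A) is a methyl mark on adenosines inside messenger RNAs. The METTL3 and METTL14 methyltransferase complex writes it, FTO and ALKBH5 can remove it, and YTH-domain proteins bind it and affect the translation and decay of the marked RNA. In many mammalian transcripts the mark lies in long internal exons and in the last exon around the stop codon, often as several neighbouring sites. In m6A-IP an antibody pulls down RNA fragments that carry the mark, and a peak is a stretch where the IP holds more sequence tags than the input, the same RNA without the pull-down. The lists give positions in the mouse build mm9 without gene names, so the regions are named by position. Genes, exons and the hippocampal identity of the RNA were not checked here.

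Tag levels are given as normalized tags, the number of tags per 10000000 of the library. On the assumption that the authors used that scale, the IP libraries held 23400000 and 23000000 tags at 2 weeks and 16100000 and 16500000 at 6 weeks, so depth and age cannot be told apart. The controls held 11700000 to 29300000 tags.

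Isolation went with few calls. Of the 41449 regions called in 1 list, 22.3% were solitary by the same distance. That share was 11.7% for regions called in 2 lists, 6.75% for 3 lists and 3.81% for all 4. Seen from the other side, 3.39% of the 11486 solitary regions were called in all 4 lists, against 16.6% of the 59188 regions with a neighbour. These shares follow from the calls that chose the regions and were not tested.

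**Figure D1:**
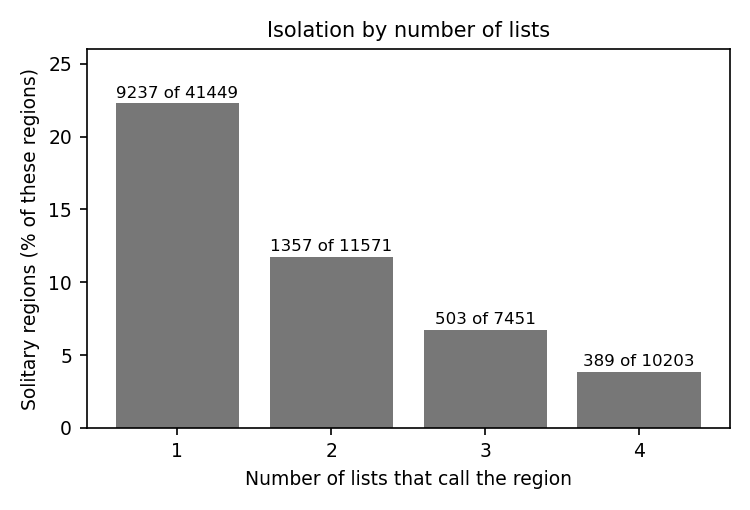
Share of regions that are solitary (vertical axis, percent), by the number of lists that call them (horizontal axis), with the counts above the bars. The share was 22.3% for regions of 1 list and 3.81% for regions of all 4.

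Solitary regions called in fewer lists held fewer IP tags in the libraries that called them. In 2-week replicate 1 the median was 122 IP tags for the solitary regions called in all 4 lists, 42 for those called in 3, 16 for those called in 2 and 10 for those called in 1. In 6-week replicate 2 the medians were 47, 26, 21 and 17 tags. The regions called everywhere were thus the high end of the solitary ones in tags, a measure that the calls themselves depend on.

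The nearest region on either side of a solitary constant region was 21921 bp away at the median, with quartiles of 15293 and 42549 bp. It was at least 20000 bp away for 214 of the 389, at least 50000 bp for 80 and at least 100000 bp for 24. That nearest region had been called in a single list for 247 members (63.5%) and in all 4 lists for 56 (14.4%), where 58.6% of all regions were called in 1 list and 14.4% in all 4. Counting only neighbours called in all 4 lists, the median distance was 71029 bp, and 162 members (41.6%) had none within 100000 bp.

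The most isolated was chromosome 10 from 70387718 to 70387979, with no region of any list for 273404 bp on the left and 301575 bp on the right. Its 2-week libraries held 33 and 29 IP tags over 7 and 1 control tags, and its 6-week libraries 23 and 10 over 1 and 0. Next came chromosome 2 from 3697024 to 3697198, with its nearest neighbour 232707 bp away and 221, 246, 62 and 41 IP tags in the 2-week and then the 6-week replicates. Chromosome 5 from 12584920 to 12585207 followed at 225826 bp and had its nearest constant neighbour 1667644 bp away. Chromosome 15 from 52899996 to 52900277 lay 212386 bp and chromosome 10 from 86954421 to 86954538 lay 195153 bp from the nearest region. Values in this order, 2-week replicates 1 and 2 and then 6-week replicates 1 and 2, are used throughout. The last of these regions held 10.6, 16.04, 3.17 and 3.42 normalized input tags, and its folds over control were 4.12, 3.5, 5.09 and 3.55. Its 6-week input lay below both 2-week values, but the log2 change of -1.45 ± 0.59 (SE) did not pass edgeR's test of input between the ages (adjusted p = 0.201).

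Regions close to the distance limit are given on both sides of it. Just inside lay chromosome 12 from 72198530 to 72198683 at 10017 bp, chromosome 16 from 14152465 to 14152616 at 10040 bp and chromosome 9 from 66366166 to 66366300 at 10041 bp. Their IP levels in 2-week replicate 1 were 22.6, 27.7 and 35.0 normalized tags. Just outside lay chromosome 1 from 166232436 to 166232557 at 9931 bp, chromosome 17 from 15957762 to 15958001 at 9870 bp and chromosome 8 from 24352850 to 24352974 at 9835 bp, with 31.6, 253 and 84.1 normalized IP tags in that library.

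Every chromosome but Y held solitary constant regions. Among the regions called in all 4 lists, the solitary share ran from 2.91% on chromosome 7 (21 of 722) to 6.23% on chromosome 14 (21 of 337). On chromosome X it was 5.0% (12 of 240) and on chromosome 19 it was 2.99% (9 of 301). Chromosome Y held 4 constant regions, of which 0 were solitary. The differences between chromosomes were not tested.

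The first comparison set the solitary regions beside the 9814 other regions called in all 4 lists, in RNA level and enrichment. Both sets passed the same calls, but a solitary region also needed to have no called neighbour. Calls depend on tags and fold, so the rule is not independent of the values compared, and the differences are a description. Where a list had several peaks in a region, the peak with the most IP tags stood for it. Solitary regions lay lower in all 3 measures in each of the 4 libraries, by small amounts. Their median fold over control, the authors' value for each peak, was 5.96, 5.94, 7.67 and 5.79, against 6.57, 6.56, 8.36 and 6.03 in the others. The log2 difference was -0.12 ± 0.04 (SD over 4 libraries), a ratio of 0.922.

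In the input, the median solitary region held 8.19, 8.91, 6.33 and 5.12 normalized tags. The other constant regions held 9.55, 10.1, 6.97 and 5.98. The log2 difference was -0.19 ± 0.04 (SD, n = 4 libraries), a ratio of 0.876. In the IP, the medians were 52.1, 55.3, 43.4 and 28.5 normalized tags for the solitary regions and 60.2, 66.2, 55.5 and 36.6 for the others, a log2 difference of -0.30 ± 0.08 (SD, n = 4 libraries) and a ratio of 0.814. Solitary medians were lower in 4 of 4 libraries for each measure. The exact two-sided sign-flip permutation p was 0.13 for each, the smallest that 4 libraries allow. All 4 libraries compare the same regions, whose tags correlate between libraries, so the 4 differences are not independent. That p therefore cannot show that solitary regions differ from the others. The quartiles of both sets overlapped widely in each library.

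**Figure D2:**
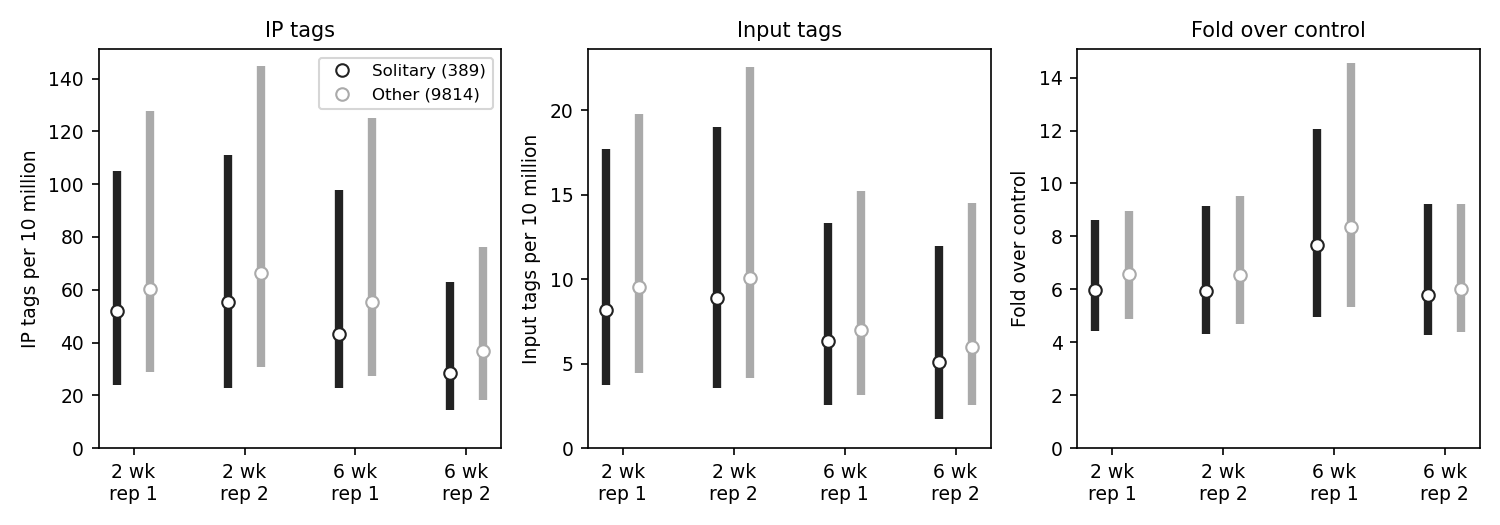
Normalized IP tags, normalized input tags and fold over control (vertical axes, linear) in each library (horizontal axis). Circles are medians and bars run from the lower to the upper quartile over regions; the solitary medians lie below the others in every library, such as 52.1 against 60.2 IP tags in 2-week replicate 1.

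The direction depended on which peaks entered. When peaks under 5-fold were left out and the regions were rebuilt, solitary regions lay above the others in input (log2 difference 0.28) and in IP tags (0.13), and below them in fold (-0.09). With the limit at 20000 bp, the fold difference was -0.01 (exact two-sided permutation p = 0.875), and the differences in input and IP tags were -0.42 and -0.44. Among regions with exactly 1 peak in each list, the input difference shrank to -0.08 ± 0.10 (SD, n = 4 libraries), was positive in 2-week replicate 2 (0.04), and had an exact two-sided permutation p of 0.25, while the IP difference stayed at -0.28 ± 0.09.

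Input RNA did not fall evenly with distance. Among constant regions with a neighbour 1000 to 2000 bp away, median input was 13.6, 13.1, 9.5 and 7.68 normalized tags. At 10000 to 20000 bp it was 10.2, 10.1, 7.60 and 5.98, and at 50000 bp or more it was 7.16, 6.54, 5.07 and 3.42. Regions with a neighbour within 200 bp also had a lower median than those at 1000 to 2000 bp, 8.53, 8.91, 6.33 and 5.98. The fold over control moved differently: in 2-week replicate 1 it was 6.71 under 200 bp, 5.67 at 10000 to 20000 bp and 5.92 at 50000 bp or more, and in 6-week replicate 2 it was 6.15, 5.56 and 6.94. The 80 most isolated regions thus combined the lowest median input of any distance class with a fold within the range of the other classes in 3 of the 4 libraries; in 6-week replicate 2 their fold was above that of every other class.

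**Figure D3:**
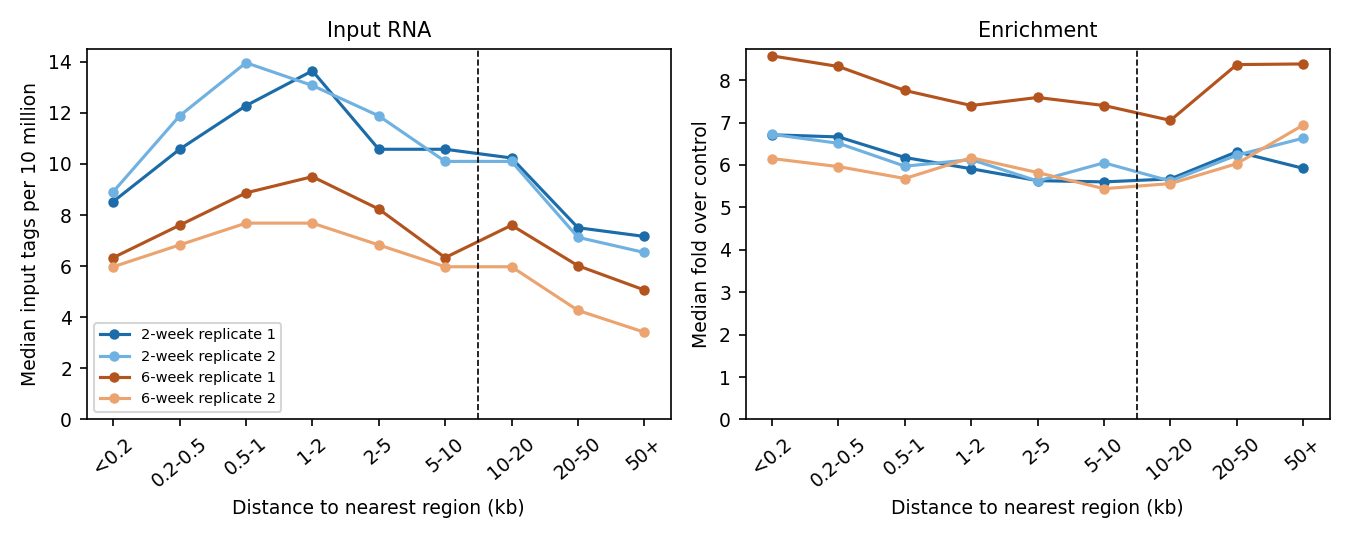
Median normalized input tags (left) and median fold over control (right) of regions called in all 4 lists, by distance to the nearest region of any list (horizontal axis, kb, in classes), 1 line for each library. Solitary regions lie right of the dashed line, where median input fell to 3.42 in 6-week replicate 2 at 50 kb or more.

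The merged solitary region was 153 bp at the median and 609 bp at most, where single peaks are at most 100 bp. The other constant regions had a median of 157 bp. Exactly 1 peak in each list was found in 196 of the 389 (50.4%), against 44.6% of the others. The regions share 4 libraries and were chosen by their peak calls, so the gap is a description and was not tested. That gap of 5.75 percentage points was 1.43 with the limit at 20000 bp and 2.86 with peaks at 5-fold or more. In single libraries, 282 to 308 of the members held 1 peak and 14 to 23 held 3 or more.

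Enrichment came close to the caller's 3-fold minimum in at least 1 library for many of them. The lowest of the 4 folds was under 3.5 in 104 members (26.7%) and under 4 in 175 (45.0%), against 20.6% and 37.9% of the other constant regions. It was 5 or more in 123 (31.6%), against 37.9% of the other constant regions, and 8 or more in 30 (7.71%), against 7.39%. The lowest fold fell in 6-week replicate 2 for 127 members and in 6-week replicate 1 for 57. At least 1 library had 0 control tags in 48 members, most often 6-week replicate 2 (37 members), and no member lacked control tags in all 4. A count of 0 tags allows up to 3 tags, so a fold against such a control is loosely bounded.

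The members with the highest enrichment, by the geometric mean of the 4 folds, sat on little RNA. The fold divides by control tags, so this ranking itself favours members with few of them. Chromosome 3 from 63719380 to 63719485 led with folds of 12.5, 21.0, 30.02 and 30.5, over 11, 5, 6 and 1 control tags. Chromosome 16 from 45216481 to 45216638 had folds of 26.3, 16.9, 29.4 and 14.2, over 1, 1, 1 and 0 control tags. Chromosome 10 from 89039141 to 89039357, with control tags of 2, 8, 0 and 0, ranged from 4.95-fold to 76.4-fold. Chromosome 8 from 88225175 to 88225304 and chromosome 2 from 132576259 to 132576406 followed, with mean folds of 18.1 and 17.9. With 0 to 11 control tags in each library, the order among these 5 rests on few tags.

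The lowest members kept close to the minimum in every library. Chromosome 5 from 31235967 to 31236086 was at 3.45, 3.02, 3.36 and 3.46-fold, and chromosome 2 from 104554829 to 104554933 at 3.61, 3.35, 3.70 and 3.09-fold. Chromosome 13 from 69877638 to 69877749 was at 3.32, 3.28, 3.86 and 3.36-fold on ample RNA, with 223, 229, 118 and 108 normalized input tags. Chromosome 5 from 121391749 to 121391875 and chromosome 2 from 158683397 to 158683581 had mean folds of 3.54 and 3.59.

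The members with the most tags are given next. Chromosome 13 from 34220235 to 34220351 had the most of both kinds as a mean over the 4 libraries, with 2209, 1405, 1091 and 416 normalized IP tags. Its normalized input was 437, 377, 127 and 99.0 tags. Chromosome 12 from 73409438 to 73409548 held 797, 1308, 1890 and 413 IP tags, so that 6-week replicate 1 was the highest library and 6-week replicate 2 the lowest. Chromosome 7 from 69494658 to 69494759 held 905, 1280, 665 and 298. Chromosome 17 from 83901548 to 83901678 held 774, 1061, 861 and 448. Its normalized input in both 6-week libraries (156 and 113 tags) was above that of the region on chromosome 13 from 34220235 (127 and 99.0). Chromosome 2 from 165637914 to 165638059 held 668, 748, 1012 and 379 IP tags. Also among the 5 members richest in input were chromosome 8 from 56040457 to 56040604 and chromosome 11 from 59251533 to 59251690, with 245 and 141 normalized input tags in 2-week replicate 1.

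A few members kept nearly the same IP to input ratio in all 4 libraries. Among those with at least 20 control tags in each list, chromosome X from 71100182 to 71100311 had the smallest SD of the log2 ratio, 0.08, with folds of 4.59, 4.25, 4.75 and 4.33. Chromosome 2 from 167469530 to 167469635 was at 6.42, 5.79, 6.78 and 6.35-fold, chromosome 1 from 137367104 to 137367215 at 4.97, 4.41, 4.66 and 4.35-fold, and chromosome 9 from 120350498 to 120350599 at 4.63, 4.77, 5.31 and 4.53-fold. The fifth was the low-fold region on chromosome 13 from 69877638. At chromosome 9 the peak starts of the 4 libraries lay within 1 bp of each other.

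Over all 389 members, libraries ranked input better than enrichment. As a description over regions, which share libraries and depth, Spearman's rho of input tags between pairs of libraries was 0.809 to 0.914, and that of the log2 IP to input ratio (0.5 tag added to both) was 0.186 to 0.462. The lowest value of both was between the 6-week replicates. The other constant regions gave 0.203 to 0.483 for the ratio. Every region here was called at 3-fold or more in each library, which cuts off low ratios. Many ratios also rest on few control tags, with a median of 6 among the members in 6-week replicate 2. How far this lowers rho for the ratio was not tested.

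The next comparison asked whether a peak moved with age more than between replicates. At the 196 members with 1 peak in each list, the median distance between peak starts was 10 bp between the 2-week replicates, 17 bp between the 6-week replicates and 9 to 12 bp between libraries of different age. The mean of the pairs of different age was 11.3 bp and that of the pairs of the same age 13.5 bp. The higher same-age mean came from the 6-week pair, while the 2-week pair lay within the range of the different-age pairs. The other regions with 1 peak in each list gave 10 bp, 16 bp and 11 to 15 bp in the same order. Peak positions helped to choose the regions, so the comparison is a description. The exact one-sided permutation p over the 3 ways to pair the libraries was 1, and it cannot go under 0.33. The 4 starts spanned at most 20 bp in 70 members (35.7%), against 31.2% of the other regions with 1 peak in each list.

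Tags were then compared between the ages at those 196 members, within a fit of all 4577 regions with exactly 1 peak in each list. The other 193 members had several peaks in some list and were left out of this fit. All 196 had passed 3-fold in every library, so a region that lost its call at 1 age could not be among them. In edgeR's quasi-likelihood test with Benjamini-Hochberg adjustment over all 4577 regions, input tags fell from 2 to 6 weeks in 3 of the 196 (1.53%) and rose in 0, where 1.07% of all regions fell and 1.20% rose (2.27% in either direction). At an unadjusted p under 0.05, 31 members passed (15.8%), against 15.2% of all regions. DESeq2 gave no adjusted p for 131 of the members and 3017 of all regions. It also called 3 members lower and 0 higher (1.53%, against 0.787% of all regions in either direction and 0.306% lower). With DESeq2, 13 members (6.63%) had an unadjusted p under 0.05, against 6.88% of all regions. Whether a fall reflects fewer cells of a type or less RNA in each cell cannot be told apart in bulk tissue.

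The first of these falls was at the input-rich region on chromosome 13 from 34220235. Its normalized input averaged 407 ± 42.9 tags (SD, n = 2) in the younger mice and 113 ± 20 (SD, n = 2) in the older, and both 6-week libraries lay below both 2-week ones. On the log2 scale the change was -1.33 ± 0.32 (SE), with an edgeR adjusted p of 0.0087. The IP tags there also lay lower at 6 weeks, by a log2 change of -0.96 ± 0.47 that did not pass (edgeR adjusted p = 0.297).

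At chromosome 18 from 42805412 to 42805522, normalized input was 69.9, 63.0, 13.9 and 15.4 tags. The replicates of an age lay close together and the ages well apart, and the log2 change was -1.66 ± 0.41 (SE), for which edgeR gave an adjusted p of 0.00985. Normalized IP tags were 277, 464, 67.6 and 92.7, a difference of -1.69 ± 0.42 on the log2 scale that missed the threshold (edgeR adjusted p = 0.0559). At chromosome 7 from 69494658, normalized input was 88.7, 113, 32.9 and 20.5 tags, or -1.37 ± 0.36 (SE) as a log2 change (edgeR adjusted p = 0.0199). Folds there were 10.2, 11.3, 20.2 and 14.5, higher in both 6-week libraries, while the test of the ratio gave a log2 change of 0.58 ± 0.43 (edgeR adjusted p = 0.999).

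None of these 3 passed when either 2-week replicate was left out (edgeR adjusted p of 0.802 without replicate 1 and 0.659 without replicate 2 for each), with log2 changes that remained between -1.13 and -1.82. Without 6-week replicate 2, the adjusted p was 0.0561 at chromosome 13 and 0.0871 at chromosome 7. No member or other region passed without either 2-week replicate, so this loss was not particular to them.

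In the IP tags alone, 2 members rose (1.02%) and 1 fell (0.510%), where 0.852% of all 4577 regions rose and 0.240% fell (1.09% in either direction; edgeR). None of these 3 calls held with limma, which called 0.459% of all regions, or with total tags as the scaling, which called 0%. The rises were at chromosome 13 from 94136466 and chromosome 3 from 113246436, the fall at chromosome 18 from 63096808. In that order, the log2 changes were 2.17, 2.03 and -1.81 with limma and 1.87, 2.11 and -2.23 with total tags. At an unadjusted p under 0.05, 32 members passed (16.3%), against 17.5% of all. The fall was at chromosome 18 from 63096808 to 63096935, with 265, 227, 52.1 and 52.7 normalized IP tags. They fell by 1.78 ± 0.39 (SE) on the log2 scale, at an edgeR adjusted p of 0.035. Input there was 43.7, 41.0, 13.9 and 7.68 normalized tags (log2 difference -1.42 ± 0.44, edgeR adjusted p = 0.0587), so both measures lay lower in both 6-week libraries. The IP call ended when either 2-week replicate was left out (log2 change -1.59 without replicate 1 and -1.95 without replicate 2, edgeR adjusted p = 0.34 and 0.14).

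Both rises came mainly from 6-week replicate 1. The peak starts of the 4 libraries spanned 49 bp at chromosome 13 from 94136466 and 83 bp at chromosome 3 from 113246436, so the windows compared differed. At chromosome 13 from 94136466 to 94136615 the IP held 3.84, 9.58, 38.4 and 10.9 normalized tags, which is 2.19 ± 0.51 (SE) higher at 6 weeks on the log2 scale (edgeR adjusted p = 0.0417). Without 6-week replicate 1 it was 1.45 (edgeR adjusted p = 0.139). At chromosome 3 from 113246436 to 113246619 the values were 5.12, 4.79, 37.2 and 6.06, which is 2.38 ± 0.55 higher (edgeR adjusted p = 0.042), and 1.02 without 6-week replicate 1 (edgeR adjusted p = 0.446). The controls of these regions held 0, 1, 7 and 1 tags and 0, 1, 3 and 0 tags, and leaving out either 2-week replicate also ended both calls. Without 2-week replicate 1 and then without 2-week replicate 2, the log2 changes were 1.73 and 2.89 at chromosome 13 from 94136466 and 2.49 and 2.25 at chromosome 3 from 113246436. Chromosome 3 from 113246436 lay 595246 bp from its neighbour on the left and 1578903 bp from the nearest constant region.

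**Figure D4:**
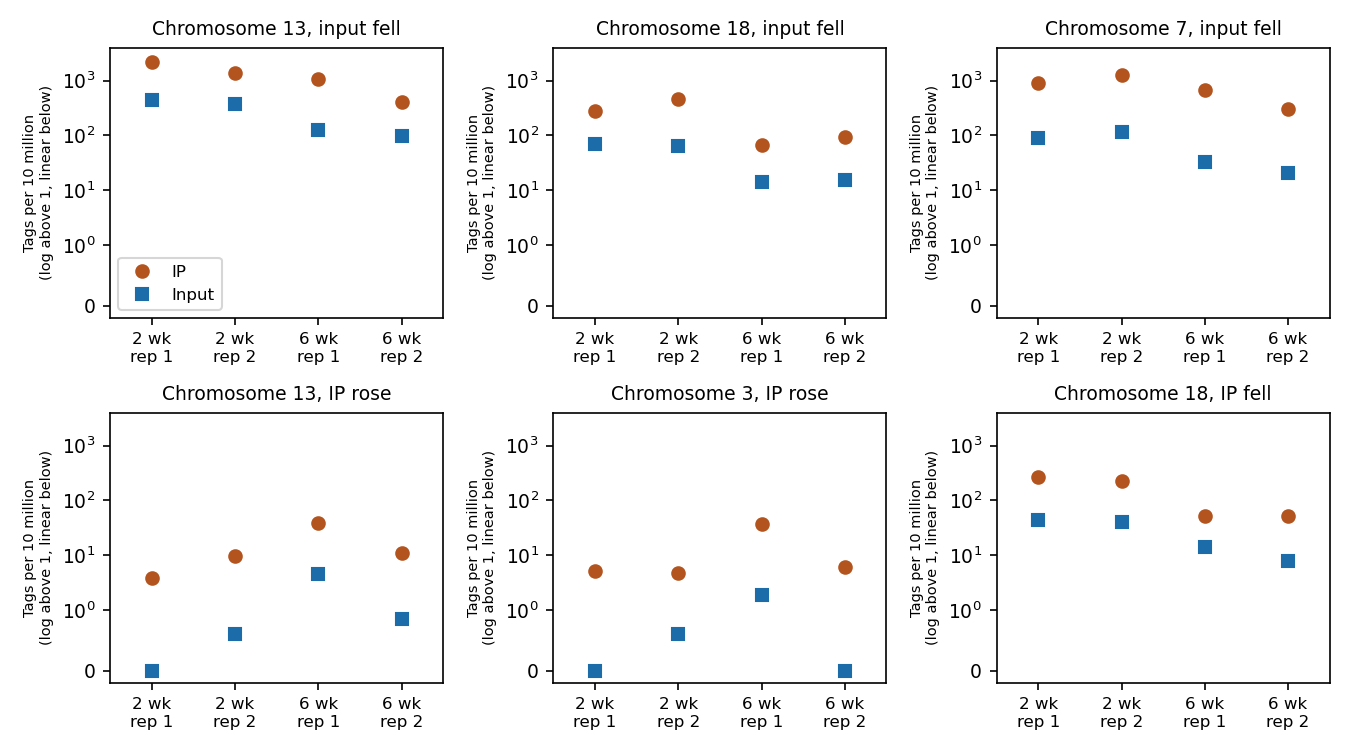
Normalized IP tags (circles) and input tags (squares) (vertical axes, logarithmic above 1 and linear below) in each library, for the 3 solitary regions whose input fell (top) and the 3 whose IP tags changed (bottom). In the 2 regions whose IP rose, 6-week replicate 1 is the highest library, with 38.4 and 37.2 IP tags.

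Away from single regions, tags lay lower at 6 weeks more often than higher, in the members and over all regions alike. The share below was somewhat larger in the members, a difference that was not tested. In normalized tags, without further scaling, both 6-week inputs lay below both 2-week inputs in 109 of the 196 members (55.6%) and above both in 6 (3.06%), where 48.0% of all 4577 regions lay below and 6.88% above. In the IP, 99 members (50.5%) lay below and 10 (5.10%) above, where 43.2% of all regions lay below and 6.49% above. After edgeR's TMM scaling, which centres the typical region near no change, the median log2 change of input was -0.20 in the members and -0.01 in the other 4381 regions, and that of the IP tags was -0.09 and 0.03.

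The gap between members and others in median input was 0.00 ± 0.06 (log2, SD, n = 2) at 2 weeks and -0.15 ± 0.05 at 6 weeks in these regions, and in IP tags it was -0.21 ± 0.01 and -0.36 ± 0.04. In both measures the 6-week libraries had the larger gap. The exact two-sided permutation p was 0.33 for each, the smallest that 2 libraries against 2 allow. Over all 389 members, the input gap was -0.20 ± 0.03 at 2 weeks and -0.18 ± 0.06 at 6 weeks, so the input gap was not larger at 6 weeks when members with several peaks were included; the IP gap was -0.23 ± 0.04 and -0.36 ± 0.01.

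Changes of input and IP went together. The fitted changes had the same sign in 148 of the 196 members (75.5%), with a Pearson r of 0.590 across regions. The regions share libraries and a 3-fold minimum and are not independent replicates. The same values over all fitted regions are not given here, so whether this is particular to the members cannot be told. Input changes ran from -4.96 to 3.78 on the log2 scale with the middle of them between -0.66 and 0.33 (quartiles), and IP changes from -1.78 to 2.38 with quartiles of -0.54 and 0.38. The widest input value, -4.96, was at chromosome 10 from 89039141, where the 6-week controls held 0 tags, and is no bound on the change. The 4 peak starts there spanned 116 bp.

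**Figure D5:**
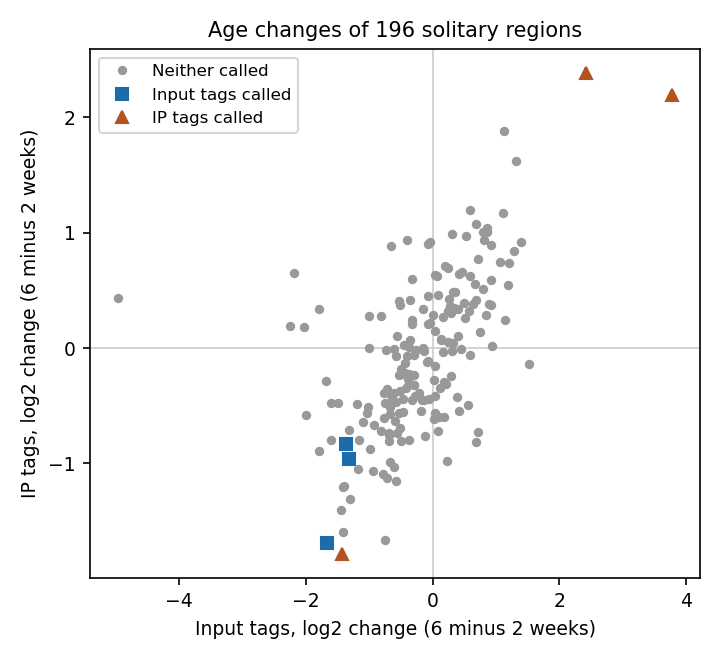
Fitted log2 change from 2 to 6 weeks in input tags (horizontal axis) and IP tags (vertical axis), 1 point for each of 196 solitary regions, with squares where the input test and triangles where the IP test passed. The points follow a rising trend (r = 0.590), and called regions lie toward the lower left and upper right.

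The IP to input ratio, the measure of m6A enrichment, passed the test in 0 of the 196 members and in 0 of all 4577 regions (0% called; edgeR, smallest adjusted p 0.999). At an unadjusted p under 0.05, 7 members (3.57%) passed against 2.82% of all regions; DESeq2 and limma also called 0, with 1 (0.510%) and 9 (4.59%) members at an unadjusted p under 0.05, against 0.612% and 3.12% of all regions. Without 6-week replicate 2, edgeR called the ratio in 21 of all 4577 regions, of which 0 were members. The median log2 change was 0.09 in the members and 0.02 over all regions, with a median SE of 0.55 for a member. A shift shared by most regions is removed by the scaling.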

How the data were processed

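Peak lists of 4 m6A-IP libraries were used. The submitters' processing notes name HOMER, Cufflinks 2.2.1, Bowtie2 2.2.3, TopHat2 (2.1.1 and 2.0.13) and build mm9 without their roles. Neither the caller's options nor the control library of a list is given in the sources used here. Per the file headers, the authors gave each peak a normalized tag signal, a score, IP and control tags (one of them scaled to the other's depth), a fold ratio and a p-value; a deposited fraction for each peak, the score and the clonal ratio were not used. Every deposited peak had a fold of at least 3 and a p-value of at most 8.32e-05. The deposited IP tags of 2-week replicate 1 are whole counts. In each list, the scaled one of IP and control tags was recovered by dividing its values by that of 1 tag. The unscaled one was read as whole tags. In every list 100% came out whole within 0.2 tag, and a control of 0.5 tag was set to 0.

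The members and tests were chosen with earlier results of these data known. Age tests used edgeR 4.0.16 (TMM, offset for peak width; SE from the F statistic), with limma 3.58.1, DESeq2 1.42.0, R 4.3.3, Python 3.11.15, pandas 2.3.3, numpy 2.4.6 and scipy 1.17.1. Fits and the merging were tested on simulated data. Named regions were those past a test (up to 8 in each direction), the 5 at each end of mean fold, the 5 highest in IP tags, input tags, isolation and constancy of the ratio, and 3 on each side of the distance limit. No genome of build mm9 was used here, so no sequence or annotation is given. Distance is the next region's start minus this one's end.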

Additional observations from a re-analysis of the deposited data

How the results depend on the processing

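The 389 solitary regions became 598, 214 and 80 with limits of 5000, 20000 and 50000 bp, 967 with peaks within 200 bp merged, 892 when 3 of 4 lists sufficed, and 519 to 758 when 1 list was left out (743 without 6-week replicate 1 and 758 without 6-week replicate 2), where a region needs 3 calls and 3 lists set the neighbours. With isolation counted only from regions called in 2 or more lists, or in all 4, 2 settings chosen after seeing the data, they were 1298 and 3543. Peaks at 5-fold or more (272), an overlap of 50 bp (265) and removing chromosomes M and Y (389) stayed within 1.5 times. The input and IP gaps to other constant regions reversed only with peaks at 5-fold or more (0.28 and 0.13 log2); the cause was not tested. The fold gap kept its sign but was -0.01 with a limit of 20000 bp.

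Input calls among members (0 higher, 3 lower) were 7 (3.57%) with limma (1 and 6), against 2.47% of all regions. With total tags they were 24 (12.2%), all lower, against 8.54% of all regions (8.08% lower). Total tags moved the median log2 change of all regions from -0.02 to -0.53. With 1 library left out, the median log2 input change of the members ran from -0.26 to -0.12, against -0.20 in the main fit. IP calls (2 and 1) were 7 (3.57%) with DESeq2, against 2.29% of all regions, 0 with limma, 0 with total tags, 1 with at least 10 control tags on average, where fewer regions were tested, and 0 to 29 with 1 library left out (29, or 14.8% against 15.9% of all regions, without 6-week replicate 2, and 8, or 4.08% against 6.38%, without 6-week replicate 1). Those fits give a single library the spread of the other age. Enrichment calls among members were 0 in every setting run; over all regions they were 21 without 6-week replicate 2 and 0 in the others. The 70 members whose 4 peak starts spanned at most 20 bp were also fitted, with all 1435 such regions. Input calls among them were 3, all lower (4.29%, against 1.95% of all, 0.976% lower). IP calls were 2, both lower (2.86%, against 1.53% of all, 0.348% lower). The 2 regions whose IP rose were not among these members. With the replicate number as a block, input calls were 3 (1.53%, against 2.32% of all regions), IP calls 9 (4.59%, against 4.15%) and enrichment calls 0. Deviations of same-numbered libraries correlated by 0.0257 in IP and 0.0296 in input. With only 2 libraries at each age, this cannot tell whether same-numbered libraries share anything beyond the number.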
